A study of Mus musculus with 27 samples.

Results

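CpG-dense highly methylated windows are 1 kb stretches of the mouse autosomes that are rich in CpG dinucleotides and still carried methylation at most of them in microglia. They were found in a pair of bisulfite libraries, 1 of control microglia and 1 of microglia given ND1. The rule took CpG positions that both libraries listed on chromosomes 1 to 19 and grouped them by 1 kb window. A window became a member when it held 20 or more shared positions and their mean methylated fraction in the control library was 0.80 or more. The rule kept 26077 windows, which is 36.4% of the 71662 windows with 20 or more shared positions and 1.20% of the 2167530 windows with any shared position. Because the control library chose the members, their control level describes the rule and is no result; the ND1 library entered the choice only through the positions it lists.

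The series holds 27 mouse samples, all labelled wild type, C57BL/6 and taken from the cortex at postnatal day 1. RNA was sequenced from 15 libraries, 3 each of control microglia at day 2, control microglia at day 7, ND1 microglia at day 2, ND1 microglia at day 7 and cultured cortical neurons. ND1 was brought in by lentivirus together with M2rtTA, a doxycycline-dependent activator, and the transduced cells received doxycycline 1 time in a medium with BDNF, GDNF and NT3. The labels leave ND1 unexplained, give no day for the bisulfite libraries, do not state the control medium, and do not tell whether replicates came from different cultures, so p-values measure only the spread between these samples. There was 1 bisulfite library in each group, so every methylation difference below compares those libraries, has no replicate check and carries no test. Cultured neurons had no bisulfite library among the samples used here.

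Cytosine methylation in mammals sits almost wholly at CpG dinucleotides, is copied at replication by DNMT1 and is placed anew by DNMT3A and DNMT3B. CpG islands at gene starts mostly stay free of methylation. Methylated CpG-dense stretches are known from bodies of transcribed genes, where DNMT3B is drawn to histone H3 trimethylated at lysine 36, and from the starts of germline genes, which are methylated and silent in somatic tissue.

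Most members lay inside genes and held no start site, and the median member had 22 shared positions. The 300 bases around the start sites that lay in members held a median of 8 CpGs. The gene starts below are chosen examples in sequence and do not stand for the typical member. Each is the 250 bases before a RefSeq start site on the gene's own strand (GRCm38.p6, the mm10 build), and capitals mark each CG that both libraries measured. Ddx4 (chr13:112652311-112652560, minus strand) encodes a germ cell RNA helicase, and Hormad1 (chr3:95559427-95559676, plus strand) a protein of the meiotic chromosome axis. Dmrtb1 (chr4:107683590-107683839, minus strand) encodes a transcription factor of spermatogonia. Tenm3 (chr8:48674691-48674940, minus strand), a teneurin of neuronal wiring, is shown because its RNA rose in ND1 cells. Ddx25 (chr9:35558471-35558720, minus strand), a testis RNA helicase gene whose window of 57 positions is no member, is the contrast.
Ddx4: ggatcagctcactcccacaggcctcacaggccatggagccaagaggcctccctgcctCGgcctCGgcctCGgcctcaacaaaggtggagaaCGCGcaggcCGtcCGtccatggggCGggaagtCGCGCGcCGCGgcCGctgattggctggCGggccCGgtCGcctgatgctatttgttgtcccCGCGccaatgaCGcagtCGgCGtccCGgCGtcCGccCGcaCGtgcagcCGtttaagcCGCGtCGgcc
Hormad1: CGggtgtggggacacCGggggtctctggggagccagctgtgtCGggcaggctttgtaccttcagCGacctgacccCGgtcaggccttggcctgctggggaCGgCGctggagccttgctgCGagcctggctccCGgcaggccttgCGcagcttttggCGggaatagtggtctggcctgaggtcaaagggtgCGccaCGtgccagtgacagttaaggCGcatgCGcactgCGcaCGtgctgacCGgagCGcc
Dmrtb1: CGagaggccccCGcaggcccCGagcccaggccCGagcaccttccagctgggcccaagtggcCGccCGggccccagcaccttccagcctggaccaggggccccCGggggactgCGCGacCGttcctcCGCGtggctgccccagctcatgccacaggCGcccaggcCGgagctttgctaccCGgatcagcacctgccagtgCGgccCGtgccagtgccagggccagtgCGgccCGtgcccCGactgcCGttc
Tenm3: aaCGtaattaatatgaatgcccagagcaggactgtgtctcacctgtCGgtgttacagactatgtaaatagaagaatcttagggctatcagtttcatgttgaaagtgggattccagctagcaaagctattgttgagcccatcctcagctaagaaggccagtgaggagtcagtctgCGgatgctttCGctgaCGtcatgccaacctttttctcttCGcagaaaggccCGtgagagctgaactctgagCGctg
Ddx25: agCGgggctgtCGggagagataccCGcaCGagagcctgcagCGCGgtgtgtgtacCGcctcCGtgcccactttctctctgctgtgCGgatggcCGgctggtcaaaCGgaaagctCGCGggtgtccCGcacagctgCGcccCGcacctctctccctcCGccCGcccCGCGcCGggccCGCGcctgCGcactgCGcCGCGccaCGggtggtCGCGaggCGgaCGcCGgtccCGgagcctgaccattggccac

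Over these bases Ddx4 had 31 measured CGs with a mean fraction of 0.822 in control and 0.794 in ND1. Hormad1 had 19, at 0.890 and 0.892. Dmrtb1 had 21, at 0.878 and 0.832, and Tenm3 had 8, at 0.897 and 0.859. The 34 CGs of Ddx25 averaged 0.0220 in control and 0.0211 in ND1, and none of them was above 0.125 in control. The unmethylated start thus held the most CGs of the 5, and all 5 differed far less between the libraries than Ddx25 differed from the other 4.

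In the ND1 library the member windows held their level. The median window mean was 0.899 in control and 0.9001 in ND1, and the mean over the 624728 CpG positions inside members was 0.893 and 0.894. The median difference, ND1 minus control, was 0.00054, its SD over windows was 0.0196, and from the 5th to the 95th percentile it ran from -0.0318 to 0.0321. Of the members, 12743 (48.9%, exact 95% binomial interval 48.3 to 49.5, which counts windows as independent and covers counting error only) were lower in ND1, against 46.5% of all windows with 20 or more positions. No member was lower by 0.20 or more, and none of the 71662 dense windows was (0%). By 0.10 or more, 1 member was lower and 1 higher, where 0.0307% of all dense windows were lower by that size, 0.0419% higher and 0.0726% either. By 0.05 or more, 245 members were lower and 193 higher, 1.68% of members. Of all dense windows 1.17% were lower by 0.05, 1.82% higher and 2.99% either. The ND1 mean of 857 members (3.29%) was under 0.80, and 838 of these had a control level under 0.85. Members were chosen at 0.80 or more in control, so only downward crossings are counted here. Choosing at 0.80 or more in ND1 instead gave 26331 windows.

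**Figure D1:**
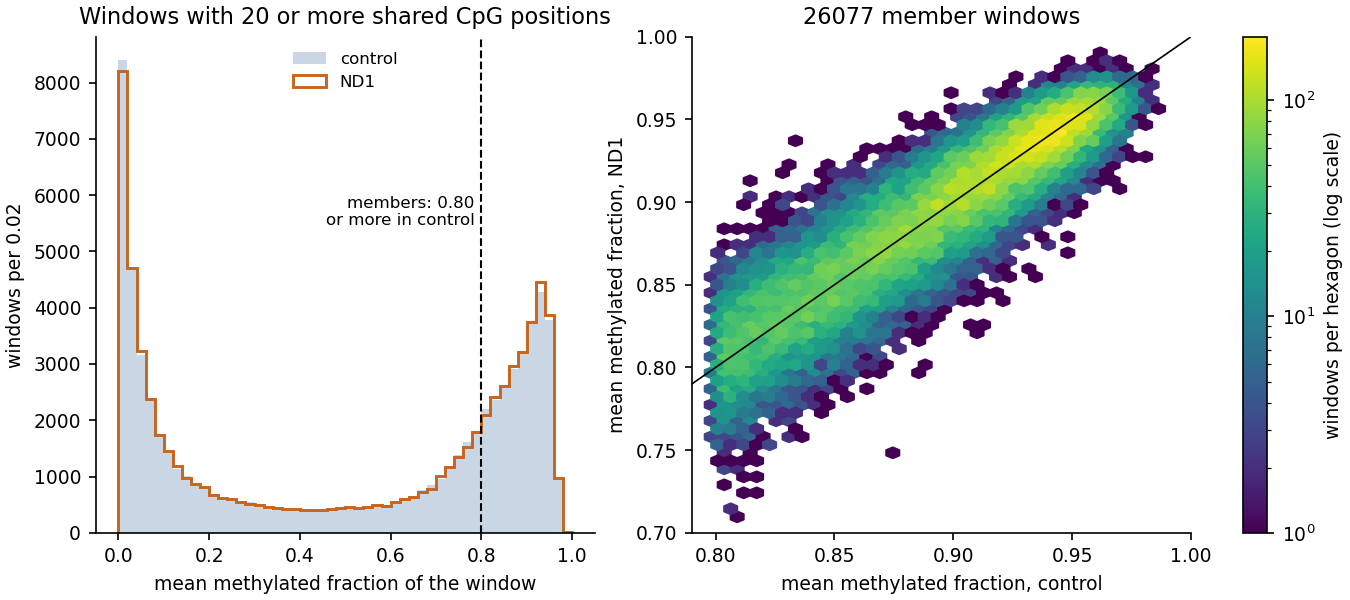
Left, the number of windows with 20 or more shared CpG positions (y axis) by their mean methylated fraction (x axis) in control (filled) and ND1 (line), with the 0.80 border of the members dashed. Right, the mean fraction of each of the 26077 members in ND1 (y axis) against control (x axis) as hexagons coloured by the number of windows, with the line of equality. The outlines of the libraries nearly coincide, and the lone hexagon near 0.87 in control lies on the Spata5 window at 0.746 in ND1.

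The spread between the libraries followed the number of positions in a window. In the 348658 CpG-poor windows of the same control level, with 5 to 9 shared positions, the SD of the difference was 0.0387, 17.98% of windows passed 0.05 and 74 were lower by 0.20 or more. In the 165798 windows with 10 to 14 positions the SD was 0.0283, in the 59155 with 15 to 19 it was 0.0235, in the members 0.0196, and in the 2646 members with 30 or more positions 0.0158. When only the first 7 shared positions of each member were used, the SD rose to 0.0352, close to the 0.0369 of windows that held exactly 7. With those 7 positions, 1.14% of members passed 0.10 in either direction, against 1.20% of the windows with exactly 7. Falls of that size alone were found in 0.583% and 1.01%. The share in either direction was thus close once the number of positions was matched, while the share of falls was lower in members. The windows with exactly 7 were chosen on the control mean of those same positions, the members on all of their positions. This unlike choice can itself shift the share of falls, so no contrast between the classes is read from it. Neither pair of shares was tested.

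**Figure D2:**
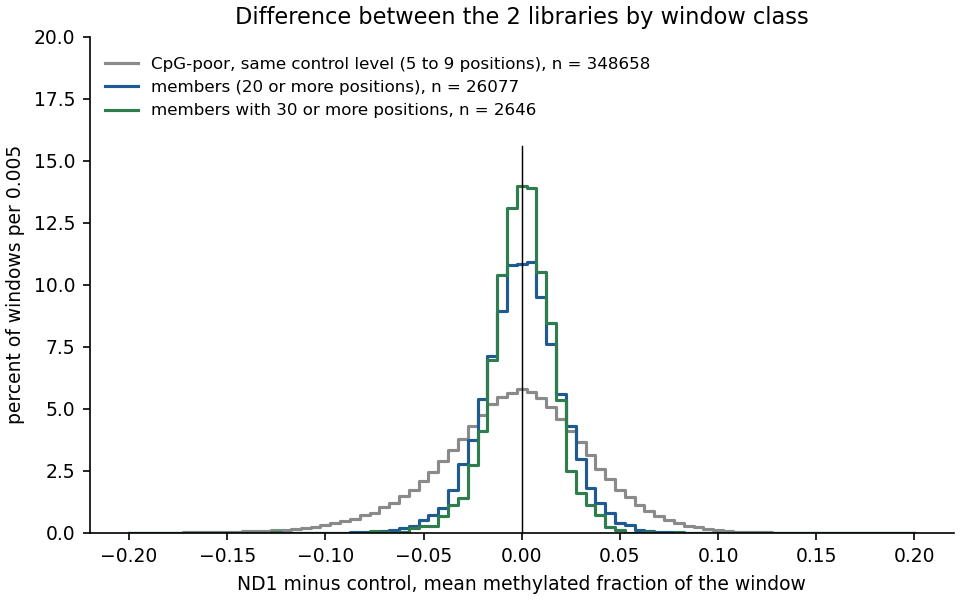
Percent of windows per 0.005 (y axis) by the difference ND1 minus control in mean methylated fraction (x axis), for CpG-poor windows of the same control level, for members and for members with 30 or more positions. The 74 CpG-poor windows lower by 0.20 or more are beyond the axis. All 3 curves are centred near 0, and the curve narrows from an SD of 0.0387 to 0.0196 and 0.0158 as positions per window increase.

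The control level of a member moved with the sign of its difference. The 2563 members at 0.95 or more in control were lower in ND1 in 69.6% of cases (median -0.00592), while the 5815 members under 0.85 were lower in 43.5% (median 0.00382). A member at the top of the control scale was chosen on that same value, so these figures are a description. To measure on positions that had not chosen the window, positions were ranked by coordinate within each window. Windows were chosen at 0.80 or more on the odd-ranked positions and measured on the even-ranked positions, with 10 or more in each set. The 25893 windows chosen this way had a median difference of 0.00111 on the even-ranked positions (SD 0.0264), and 48.2% of them were lower. With the roles exchanged, 25970 windows gave 0.00107 and 48.3%. By 0.10 or more, 10 windows were lower and 10 higher in the first arrangement and 9 and 23 in the second, and none was lower by 0.20.

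Odd-ranked and even-ranked positions of a window shared their control level far more than their difference. Across the 26077 members the control levels correlated with r = 0.651 and the differences with r = 0.133, where the points share both libraries and neighbouring positions can share reads. Of the 779 members that were lower by 0.05 or more on odd-ranked positions, the median on even-ranked positions was -0.00906, and 81 passed 0.05 there too. Of the 734 that were higher by 0.05 or more, the median was 0.00698, and 56 passed there too.

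Within members, most positions stood high in both libraries, and the control level follows from the rule. The median SD over the positions of a window in control was 0.102, against 0.0963 in the CpG-poor windows of the same control level. In control 63.9% of the positions stood at 0.9 or more and 1.78% under 0.5, and in ND1 these shares were 64.1% and 1.74%. A run of 3 or more neighbouring positions under 0.5, the pattern of a short unmethylated gap, occurred in 195 members in control and in 169 in ND1, and 100 of them had it in both. Runs of 5 or more occurred in 8 members in control and 2 in ND1. The fraction at 1 was 20.2% of positions in control and 18.9% in ND1.

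The member with the largest fall lay inside Spata5, which encodes an AAA ATPase of ribosome maturation (chr3:37481000-37481999). Its 37 positions averaged 0.873 ± 0.0813 (SD over positions) in control and 0.746 ± 0.166 in ND1. The difference was -0.127 on odd-ranked and -0.126 on even-ranked positions. The window was ranked on all its positions, so both sets helped choose it and their agreement is no separate check. Of the 37 positions 30 were lower in ND1, 12 of them by 0.20 or more. The falls clustered: the longest series of neighbouring positions that were each lower by 0.10 or more held 14 positions within 85 bases (chr3:37481367-37481451), at 0.854 ± 0.0687 in control and 0.596 ± 0.109 in ND1. The 23 positions outside it averaged 0.884 and 0.838. This series was picked after its values were seen, and positions so close together can share reads. The windows on either side held 4 and 3 shared positions, at 0.967 and 0.963 in control and 0.952 and 0.938 in ND1. Spata5 RNA was 4.74, 4.60 and 5.13 FPKM (fragments mapped to the transcript, divided by its length and by the library's total) in control at day 7 and 8.32, 8.62 and 8.64 in ND1 at day 7, without overlap, a log2 change of 0.71 (limma adjusted p = 6.65e-09) that is under the size of 1 used for calls. At day 2 it went the other way, from 12.4, 11.8 and 12.2 in control to 10.1, 9.58 and 9.66 in ND1. That log2 change was -0.285 (limma adjusted p = 0.000249), also no call, and the bisulfite libraries have no stated day.

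**Figure D3:**
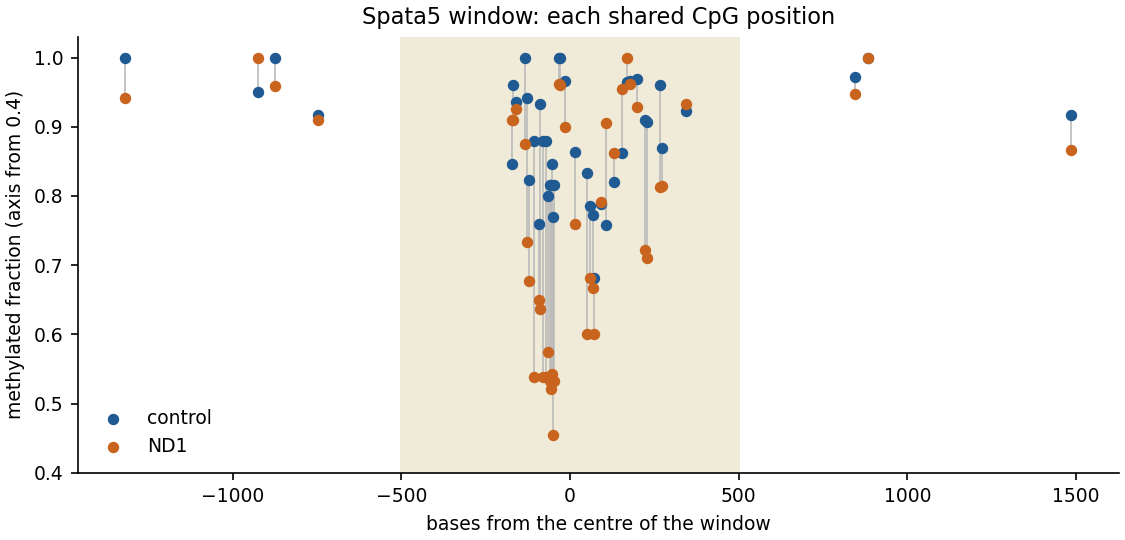
Methylated fraction (y axis, drawn from 0.4) of each shared CpG position in and beside the Spata5 window by its distance in bases from the window's centre (x axis, window shaded), in control and ND1, with a line joining each pair. The 14 neighbouring positions with the clustered fall lie left of the centre at 0.455 to 0.875 in ND1, and the flanking windows stay high in both.

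The next largest falls were smaller. Gucy2c, an intestinal receptor guanylate cyclase, held a window that went from 0.808 to 0.712 (chr6:136781000-136781999), Ubxn10, a cilium protein gene, from 0.806 to 0.714 (chr4:138721000-138721999), and Trim60 from 0.815 to 0.723 (chr8:65004000-65004999). In each case the fall was present on both sets of ranks, but not evenly: in Gucy2c it was -0.0598 on odd-ranked and -0.135 on even-ranked positions. As both sets had helped choose these windows, a fall on both is no separate check. The remaining members of the 10 largest falls lay in Rab6b, in the lncRNA genes 5033403H07Rik and Gm30301, in Gm5422, and near Map2k2, Rsph14 and Ap3b1. Their differences ran from -0.0901 to -0.0842. Of these genes Rab6b, a neuronal Golgi GTPase, had 3.54, 3.55 and 3.79 FPKM in control day 7 and 66.4, 67.4 and 67.4 in ND1 day 7. The ND1 libraries were all far above control (log2 change 3.88, SE 0.0567, limma adjusted p = 3.61e-16), while the window within the gene went from 0.883 to 0.798 (chr9:103147000-103147999).

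The largest rises were of similar size. A window in Atrnl1 went from 0.833 to 0.935 (chr19:57986000-57986999), and a window 19268 bases from Pax3, a neural crest transcription factor gene, from 0.813 to 0.912 (chr1:78081000-78081999). Windows in Gm29682, in Gcn1 and in the body of Tenm3 rose by 0.0931, 0.0899 and 0.0877. Atrnl1, an attractin-like membrane protein gene, stood at 0.409, 0.574 and 0.642 FPKM in control day 7 and 17.9, 18.9 and 18.5 in ND1 day 7, so its RNA was higher (log2 change 3.66, SE 0.0843, limma adjusted p = 1.46e-14) beside a window that was higher too. Rab6b, named above, had higher RNA beside a lower window.

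At the border of the rule the windows just inside stood at 0.80001 in the lncRNA gene 2610035D17Rik, 0.80004 in Col6a6 and 0.80007 near Acsf3, with ND1 values of 0.757, 0.795 and 0.805. Just outside were windows in Kcnip1, Kcnab2 and Slc4a8 at 0.79999, 0.79998 and 0.79996, with ND1 values of 0.759, 0.810 and 0.819. The values on either side of the border do not differ in kind.

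Most members lay within genes. Leaving out chromosome 18, whose start sites were not used here, 76.0% lay inside a protein-coding gene without holding a start site, 5.91% inside another gene, 16.0% between genes and 2.04% held a start site. Among the other dense windows 26.9% held a start site, and those had a median control fraction of 0.0288. Windows inside protein-coding genes had a median of 0.908 in control and 0.910 in ND1, those between genes 0.868 and 0.867, and those with a start site 0.876 and 0.874. The share past 0.05 in either direction was 1.30% inside protein-coding genes, 1.74% at start sites and 3.08% between genes. The table of genes used gives spans and not exons, so exons, introns and repeats were not told apart.

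Member windows were scattered. They formed 22290 runs of adjacent windows, and 19425 members (74.5%) had no member next to them. The windows directly beside a member, other members included, were averaged per member. Their median was 13 positions and a control fraction of 0.863. A dense window under 0.20 lay beside 274 members (1.05%). The longest run was 12 windows over Plec (chr15:76172000-76183999), the gene of the cytoskeletal linker plectin, where 625 positions averaged 0.964 in control and 0.966 in ND1. Abca2, a lipid transporter gene, followed with 11 windows at 0.908 and 0.911 (chr2:25437000-25447999), and Spen, a transcriptional corepressor gene, with 9 at 0.938 and 0.940 (chr4:141468000-141476999). Per chromosome, members made up 32.2% of the dense windows on chromosome 2 and 41.9% on chromosome 8, the ends of the range, and the median difference stayed between -0.00102 and 0.00155 on all 19.

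The densest members lay in gene bodies. A window shared by Arhgap23 and 4933428G20Rik held 98 positions at 0.834 and 0.852 (chr11:97500000-97500999), and it also contains the start of the latter. Numbered zinc finger genes supplied 3 of the other 4, Zfp865 with 92 positions at 0.936 and 0.935, Zfp467 with 85 at 0.895 and 0.9005 and Zfp319 with 81 at 0.953 and 0.947. The fourth was in Bcl11b (chr12:107916000-107916999), a zinc finger transcription factor gene of cortical projection neurons, with 82 positions at 0.825 and 0.829. Bcl11b RNA was 0.0174, 0.135 and 0.0481 FPKM in control day 7 and 8.81, 9.13 and 8.66 in ND1 day 7. It was higher in all 3 ND1 libraries (log2 change 3.21, SE 0.0750, limma adjusted p = 1.69e-14) while its densest methylated window differed by 0.00421.

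Members were found in the bodies of 7443 protein-coding genes, 3414 of which had exactly 1 and 293 of which had 10 or more. Cit, the citron kinase gene of cell division, held 60, with a mean of 0.935 in control and 0.934 in ND1. Wwox, a gene in a fragile site, held 58 (0.906 and 0.912), Zfhx3, a homeobox gene, 54 (0.914 and 0.916), Gse1 52 (0.888 and 0.892) and Tiam1, an activator of the GTPase Rac, 49 (0.911 and 0.910). Tiam1 and Zfhx3 moved in opposite directions in RNA while the member windows of both bodies kept their level. Tiam1 stood at 0.210, 0.217 and 0.159 FPKM in control day 7 and at 6.11, 5.88 and 5.97 in ND1 day 7 (log2 change 2.55, SE 0.0656, limma adjusted p = 4.78e-14). Zfhx3 stood at 2.496, 4.16 and 3.56 and at 0.621, 0.529 and 0.520 (log2 change -1.48, SE 0.0999, limma adjusted p = 3.10e-09). Plec fell as well, from 5.73, 9.15 and 7.70 FPKM to 1.20, 1.08 and 1.01 (log2 change -2.005, SE 0.110, limma adjusted p = 2.90e-10).

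Genes with measurable RNA in control microglia had more of their dense body windows in the member class. In genes under 0.1 FPKM in control at day 7, 33.5% of the dense windows of the body were members. The share was 39.0% from 0.1 to under 1 FPKM, 55.8% from 1 to under 10 and 53.7% at 10 or more. This is a description over genes, which differ in length, and the bisulfite labels give no day. ND1 minus control of the member windows that overlapped a gene did not separate genes by how their RNA behaved at day 7. Windows with a start site were included, and the other parts of the bodies did not enter. Averaged per gene, the median was 0.00062 in the 1548 genes called higher, 0.00083 in the 1412 called lower and 0.00074 in the 2648 not called, with quartiles of -0.00770 and 0.00903, -0.00685 and 0.00924, and -0.00701 and 0.00811. A per-gene fall of 0.05 or more was seen in 9, 2 and 5 of them, and a rise of that size in 6, 4 and 4.

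Start sites in member windows were rare, and nearly as many belonged to lncRNA genes as to protein-coding genes. Of 12950 genes with a start site in a dense window, 527 (4.07%) had one in a member. This was 265 of 10695 protein-coding genes (2.48%) and 262 of 2255 lncRNA genes (11.6%), and 431 of the 527 had every start listed for them in a member. The 300 bases around a member start (250 before, 50 after) held a median of 8 CpGs, against 22 at the other dense starts and 7 at all starts. A dense start here thus means a start in a dense 1 kb window, and the bases next to a member start were mostly not CpG-rich. The 517 windows with a member start had a median difference of -0.000956, from -0.0667 to 0.0742.

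Germline and meiosis genes were the listed group with most starts in member windows. Of the 36 listed genes with a dense start, 18 (50%) had it in a member, where 4.07% of all genes with a dense start did. They span germ cell RNA silencing (Asz1, Mov10l1, Tdrd9, Ddx4, Stk31), the meiotic chromosome axis and synaptonemal complex (Hormad1, Sycp1, Sycp3, Syce3), germline transcription and chromatin (Sohlh2, Dmrtb1, Brdt), and Slc25a31, Fkbp6, Tex101, Tex19.1, Rpl10l and Tcl1. Their windows held 21 to 65 positions and ranged from 0.808 in Ddx4 to 0.923 in Hormad1 in control. In ND1, 12 were lower and 6 higher, with a median difference of -0.0133 and a range from -0.0369 in Asz1 to 0.0293 in Sycp1. Asz1 (chr6:18109000-18109999) went from 0.873 ± 0.111 to 0.836 ± 0.102 over 21 positions (SD over positions). Sycp1 (chr3:102936000-102936999) went from 0.821 ± 0.221 to 0.851 ± 0.172 over 22. None of the 18 windows moved by 0.05.

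The list's other 18 dense starts lay on a continuum below the border. Sohlh1 (0.796 in control and 0.774 in ND1), Tex14 (0.790 and 0.796) and Dazl (0.787 and 0.773) were just under it, and 7 in all stood between 0.70 and 0.80. Piwil1 (0.521 and 0.528), Tdrd1 (0.512 and 0.534) and Smc1b (0.486 and 0.483) were intermediate. Tdrkh (0.158 and 0.152), Mei4 (0.0622 and 0.0587) and Ddx25 (0.0265 and 0.0281) were the 3 under 0.20. Their differences ran from -0.0427 in D1Pas1 to 0.0362 in Rnf212, and 9 of the 18 were lower.

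**Figure D4:**
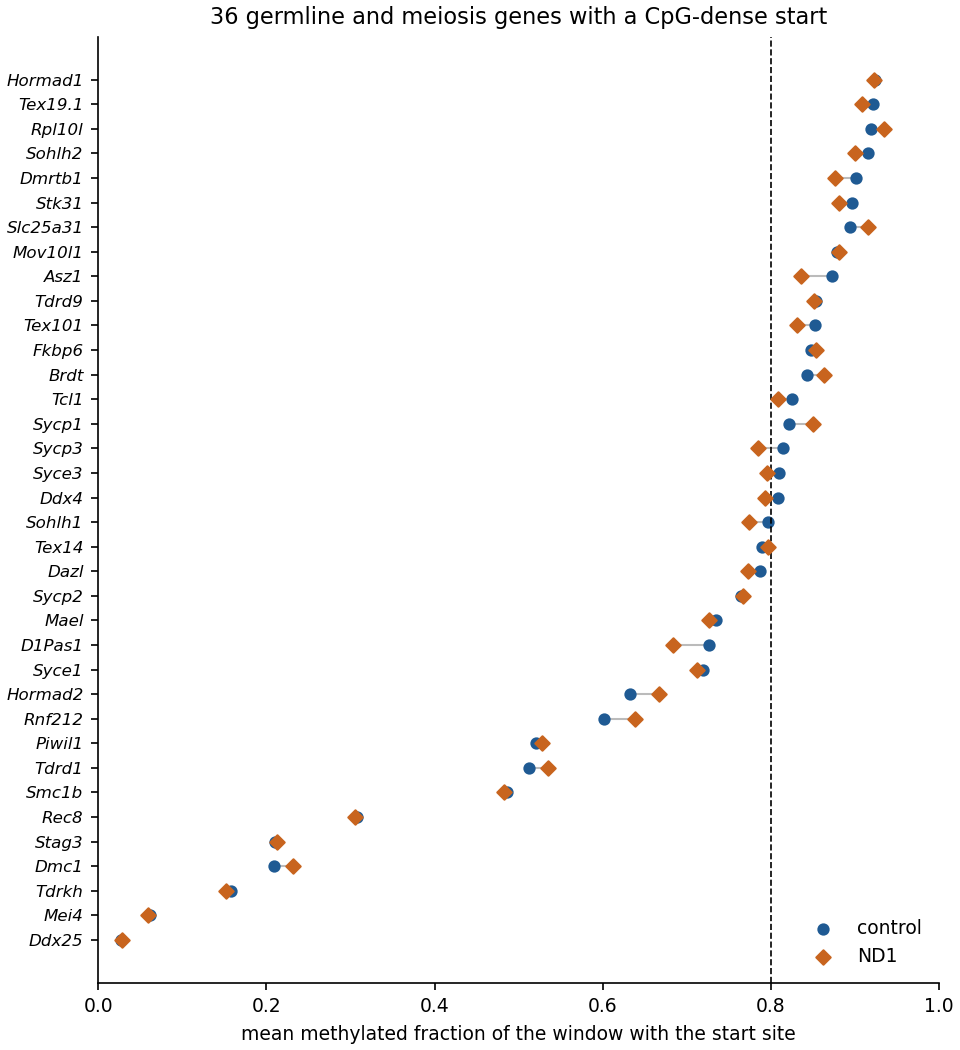
Mean methylated fraction (x axis) of the window that holds the start site, for each of 36 germline and meiosis genes with a CpG-dense start (y axis, ordered by control level), in control (circles) and ND1 (diamonds). The 18 genes right of the dashed 0.80 line in control are members, and no pair is 0.05 or more apart.

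Other gene groups had few or no starts in member windows. Imprinted genes had 1 of 27 (3.70%), Zdbf2, and pluripotency genes 1 of 9 (11.1%), Tcl1, which is also in the germline list. There were 0 of 45 homeobox and developmental transcription factors, 0 of 22 neurogenic transcription factors, 0 of 27 neuronal and synaptic genes, 0 of 10 microglial and myeloid genes, 0 of 17 DNA methylation enzymes and readers and 0 of 19 collagen and laminin genes. Marker lists of neurons (5 dense starts), astrocytes (4), oligodendrocyte lineage (3) and fibroblast and mural cells (1) had none, and microglia markers had no dense start. All 22 neurogenic and all 45 homeobox genes with a dense start had at least 1 start in a dense window under 0.20. Clustered protocadherins were not matched.

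The 300 bases described above were searched on both strands for 4 short motifs. The canonical E-box, CACGTG, was present at 12 of 21 germline member starts (57.1%), 9.21% of all 554 member starts with sequence, 10.1% of other dense starts and 7.14% of all 31365 starts. The 21 starts belong to 18 genes, since Hormad1, Stk31 and Syce3 have 2 member starts each. Starts of the same gene can share sequence, so they are not separate cases. Of the sequences printed above, Hormad1 holds it at 2 places, Ddx4 at 1, and Dmrtb1, Tenm3 and Ddx25 at 0. A second motif, GCGGGA, as in sites of the E2F family, was at 8 of the 21 germline starts (38.1%), 10.5% of member starts, 38.0% of other dense starts and 20.2% of all starts. The E-box of neurogenic factors, CAGATG, was at 2 of the 21 (9.52%), 19.7% of member starts, 10.8% of other dense starts and 17.2% of all. The TATA box letters, TATAAA, were at 4 of the 21 (19.05%), 12.996% of member starts, 6.04% of other dense starts and 13.6% of all. The letters CACGTG read the same on both strands, none of the 4 motifs contains another, and a match of letters says nothing about binding.

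Genes with a start in a member window mostly had little RNA in every group. Of the 527, 278 were matched to the RNA tables by symbol. Between 16.2% (control day 7) and 20.1% (ND1 day 2) of them reached a mean of 1 FPKM, and 34 (12.2%) were listed at 0 in all 15 libraries. Over all 24289 gene symbols, 44.4% (control day 2) to 49.8% (ND1 day 7) reached 1 FPKM. Of the 9957 matched genes with a dense start under 0.20 and none in a member, 72.2% to 81.1% reached 1 FPKM, and 54 (0.542%) were listed at 0 in all 15. These sets were not matched for CpGs beside the start, where member starts held a median of 8 in 300 bases and other dense starts 22. Among the 221 genes with every listed start in a member, the share at 1 FPKM or more ran from 6.79% to 9.50%. The share at ND1 day 7 was 7.24%, against 6.79% in control day 7. In bulk RNA, fewer cells of a type and less RNA per cell cannot be told apart.

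All 18 germline genes with a member start had an RNA row, and 15 were under 1 FPKM in every library, with 0.877 as the highest value among them. Hormad1 was listed at 0 in all 3 control day 7 libraries and at 0.0210, 0 and 0 in ND1 day 7, Tcl1 was listed at 0 in all 15, and Syce3 had a single value above 0, in a neuron library. The exceptions were Ddx4, Brdt and Dmrtb1. Ddx4 had 1.89, 2.39 and 2.05 FPKM in control day 2 and 1.35, 1.20 and 1.30 in ND1 day 2, but 0.121, 0.250 and 0.432 in control day 7 and 0.0808, 0.151 and 0.146 in ND1 day 7. Its day 2 groups lay above its day 7 groups without overlap, on a window at 0.808 and 0.793. Brdt, a testis bromodomain gene, had 0.469, 0.335 and 0.554 in control day 7, 1.36, 1.52 and 1.32 in ND1 day 7 and 1.95, 1.97 and 1.92 in neurons. Its change at day 7 did not reach the size of a call (log2 change 0.73, SE 0.0589, limma adjusted p = 2.64e-08). Dmrtb1 had 0.117, 0.121 and 0.0567 in control day 7, 0.391, 0.486 and 0.334 in ND1 day 7 and 1.49, 1.11 and 1.402 in neurons, and was called only in neurons (log2 change 1.08, SE 0.0631, limma adjusted p = 5.39e-10). Over the whole germline list 47 of 49 genes were in the table and 7 were tested, of which 2 were called higher at day 7 and 0 lower, where 25.7% of all genes tested were called higher and 24.5% lower. These were Ddx25 and Tdrkh, named for being called, whose dense starts lay under 0.20. Ddx25 stood at 0.803, 0.480 and 0.614 FPKM in control day 7 and 35.3, 34.6 and 36.4 in ND1 day 7 (log2 change 4.48, SE 0.10, limma adjusted p = 1.05e-14), and Tdrkh at 4.42, 4.54 and 3.80 and at 14.8, 15.1 and 15.5 (log2 change 1.62, SE 0.0574, limma adjusted p = 1.75e-12). The summed FPKM of the 47 ran from 10.6 to 11.7 in control day 7 and from 56.6 to 58.8 in ND1 day 7. Most of the ND1 day 7 sum came from Ddx25 and Tdrkh, neither of which has a start in a member. The sum thus does not describe the other genes of the list.

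A fit over all 13599 genes with at least 1 FPKM in 3 or more libraries tested 64 genes with a start in a member. A gene was called at a limma adjusted p under 0.05 with a log2 change of at least 1 on log2(FPKM + 1). At day 7, ND1 against control, 22 were called higher and 12 lower, 53.1% of the 64 against 50.2% of all genes tested (25.7% higher and 24.5% lower). With quantile normalization the split was 18 higher and 17 lower. The median log2 change was 0.46 against 0.04 in all genes tested. At day 2, 11 were called higher and 0 lower, 17.2% against 9.71% (9.1% higher and 0.618% lower), with a median of 0.08 against -0.04. That day 2 count was 17 with a pseudocount of 0.1 and 6 with quantile normalization, where 18.6% and 7.18% of all genes were called. Neurons against control day 7 gave 26 higher and 13 lower, 60.9% against 53.4% (28.1% higher and 25.2% lower). The ND1 effect at day 7 differed from that at day 2 for 25, with 17 higher and 8 lower at day 7 relative to day 2, 39.1% against 41.3% (20.5% higher and 20.8% lower). The day 7 comparisons share the control day 7 libraries. The 64 had passed the filter on low values, so they are not all genes with such a start, and shares near the background are no result about the class. In the 26 that had every listed start in a member, 8 were called higher and 4 lower at day 7 (46.2%), with a median log2 change of -0.26, opposite in sign to that of the 64.

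The RNA calls were not mirrored by the windows at these starts. The 22 windows of genes called higher at day 7 differed by a median of -0.00557, from -0.0440 to 0.0451, with 12 of 22 lower in ND1. The 12 windows of genes called lower differed by -0.00614, from -0.0228 to 0.0317, with 7 of 12 lower. The 30 windows of genes not called differed by -0.00708, with 21 of 30 lower.

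Markers of both cell types moved strongly between the same libraries. The 8 neuron markers summed to 17.6 to 22.9 FPKM in control day 7, to 524 to 653 in ND1 day 2, to 3225 to 3266 in ND1 day 7 and to 2552 to 2759 in neurons, and all 8 were called higher at day 7. The 8 microglia markers summed to 12020 to 12597 in control day 7, 528 to 708 in ND1 day 7 and 19.6 to 22.5 in neurons, with 7 of 7 tested called lower. Astrocyte markers summed to 65.2 to 70.6 in control day 7 and 25.4 to 26.2 in ND1 day 7, oligodendrocyte lineage markers to 18.2 to 20.1 and 9.24 to 9.83, and fibroblast and mural markers to 29.5 to 38.3 and 40.4 to 44.2. In neurons these lists summed to 16.5 to 16.7, 10.5 to 11.5 and 71.6 to 77.3. The fibroblast and mural list thus does not set those cells apart from the cultured neurons. No defining marker of these lists was at 0 in ND1 day 7. The part of the mixture of cells in the values below was not tested.

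The 6 largest called rises among genes with a start in a member were in Jakmip1, Tsc22d1, Tenm3, Lrp8, Gpsm1 and Nedd4. Jakmip1, a microtubule-linked protein gene of neurons, had 0.0713, 0.0295 and 0 FPKM in control day 7, 5.49, 4.59 and 4.26 in ND1 day 2, 27.6, 27.4 and 27.3 in ND1 day 7 and 15.9, 16.7 and 15.9 in neurons. The groups did not overlap (log2 change at day 7 4.78, SE 0.0642, limma adjusted p = 2.34e-16), while the start window, 1 of 2 listed starts, stood at 0.832 and 0.854. Tsc22d1, a leucine zipper regulator gene with 1 of 5 listed starts in a member, went from 13.3, 13.7 and 13.9 to 362, 370 and 374 (log2 change 4.66, SE 0.0549). Its window stood at 0.895 and 0.915.

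Tenm3 has a single listed start, the one printed above, in a window at 0.918 ± 0.0738 in control and 0.898 ± 0.0892 in ND1 over 24 positions (chr8:48674000-48674999). Its RNA was 0.293, 0.523 and 0.488 FPKM in control day 7, 5.69, 4.56 and 4.33 in ND1 day 2, 27.4, 28.1 and 27.6 in ND1 day 7 and 17.1, 15.6 and 13.7 in neurons. All ND1 libraries lay above all control libraries (log2 change at day 7 4.33, SE 0.0911, limma adjusted p = 5.94e-15). The start table is not complete, so a start elsewhere was not tested. Lrp8, the reelin receptor gene, rose from 0.740, 0.860 and 0.864 to 22.7, 23.4 and 23.2, with its window at 0.826 and 0.816. Gpsm1, a regulator of G proteins, rose from 3.63, 3.77 and 2.93 to 55.2, 52.5 and 54.1, with its window at 0.934 and 0.905. Nedd4, a ubiquitin ligase gene, rose from 8.35, 8.86 and 10.6 to 118, 123 and 123, with its window at 0.830 and 0.840. These 3 have other listed starts outside members, and their log2 changes at day 7 were 3.73, 3.63 and 3.58 (limma adjusted p 1.42e-14, 5.57e-15 and 3.34e-14).

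Like Tenm3, 7 other genes called higher at day 7 had every listed start in a member: Cort, Cxcl1, Fat1, Cacng8, Gm16701, D930015M05Rik and Ppp2r3d. They were named after their values were seen, and starts missing from the incomplete start table were not tested. Cort, the gene of the interneuron peptide cortistatin, was listed at 0 in all control libraries and stood at 6.88, 7.74 and 7.40 FPKM in ND1 day 7 and 55.8, 69.6 and 71.6 in neurons, on a window at 0.865 and 0.878. Cacng8, an AMPA receptor auxiliary subunit gene, had 0.370, 0.191 and 0.691 in control day 7 and 7.499, 6.82 and 6.78 in ND1 day 7, on a window at 0.846 and 0.828. Cxcl1, a chemokine gene, had 0.375, 1.08 and 1.09 and then 9.23, 10.7 and 10.3, on a window at 0.888 and 0.875, and Fat1, a giant cadherin gene, had 1.22, 1.85 and 1.84 and then 6.30, 6.02 and 6.25, on a window at 0.909 and 0.925. The differences of the 8 windows, Tenm3 included, ran from -0.0199 to 0.0422, and 5 of the 8 were lower.

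The 6 largest called falls were in Srgn, Zfp217, Smarcd2, Itga9, Sap25 and Rpl39l. Srgn, the gene of the granule proteoglycan serglycin, had 127, 114 and 120 FPKM in control day 7, 80.2, 88.9 and 86.5 in ND1 day 2, 7.88, 5.27 and 6.29 in ND1 day 7 and 0.202, 0.162 and 0.110 in neurons (log2 change at day 7 -4.03, SE 0.0927, limma adjusted p = 1.43e-14). Its member start is 1 of 2 listed, at 0.927 and 0.937. Zfp217, a corepressor gene, went from 14.97, 16.7 and 17.0 to 0.996, 0.965 and 0.944 (log2 change -3.13, limma adjusted p = 2.31e-15), with its window at 0.943 and 0.9504. Smarcd2, the gene of a chromatin remodelling subunit of myeloid cells, has its only listed start in a member, at 0.936 ± 0.0508 and 0.919 ± 0.0665 over 22 positions (chr11:106267000-106267999). It went from 37.2, 36.8 and 36.3 in control day 7 to 6.60, 5.25 and 5.92 in ND1 day 7 and 2.22, 2.21 and 2.29 in neurons (log2 change at day 7 -2.45, SE 0.0615, limma adjusted p = 3.56e-14). Itga9, Sap25 and Rpl39l, also with a single listed start, fell by 2.17, 1.95 and 1.89 on the log2 scale (limma adjusted p 6.45e-15, 2.18e-06 and 2.92e-08). Their windows stood at 0.903 and 0.913, 0.841 and 0.831, and 0.801 and 0.812. As the start table is not complete, starts elsewhere in Smarcd2 and these genes were not tested. Sap25 was the most scattered, at 6.16, 5.27 and 2.35 FPKM in control day 7, still above its 0.465, 0.198 and 0.496 in ND1 day 7.

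**Figure D5:**
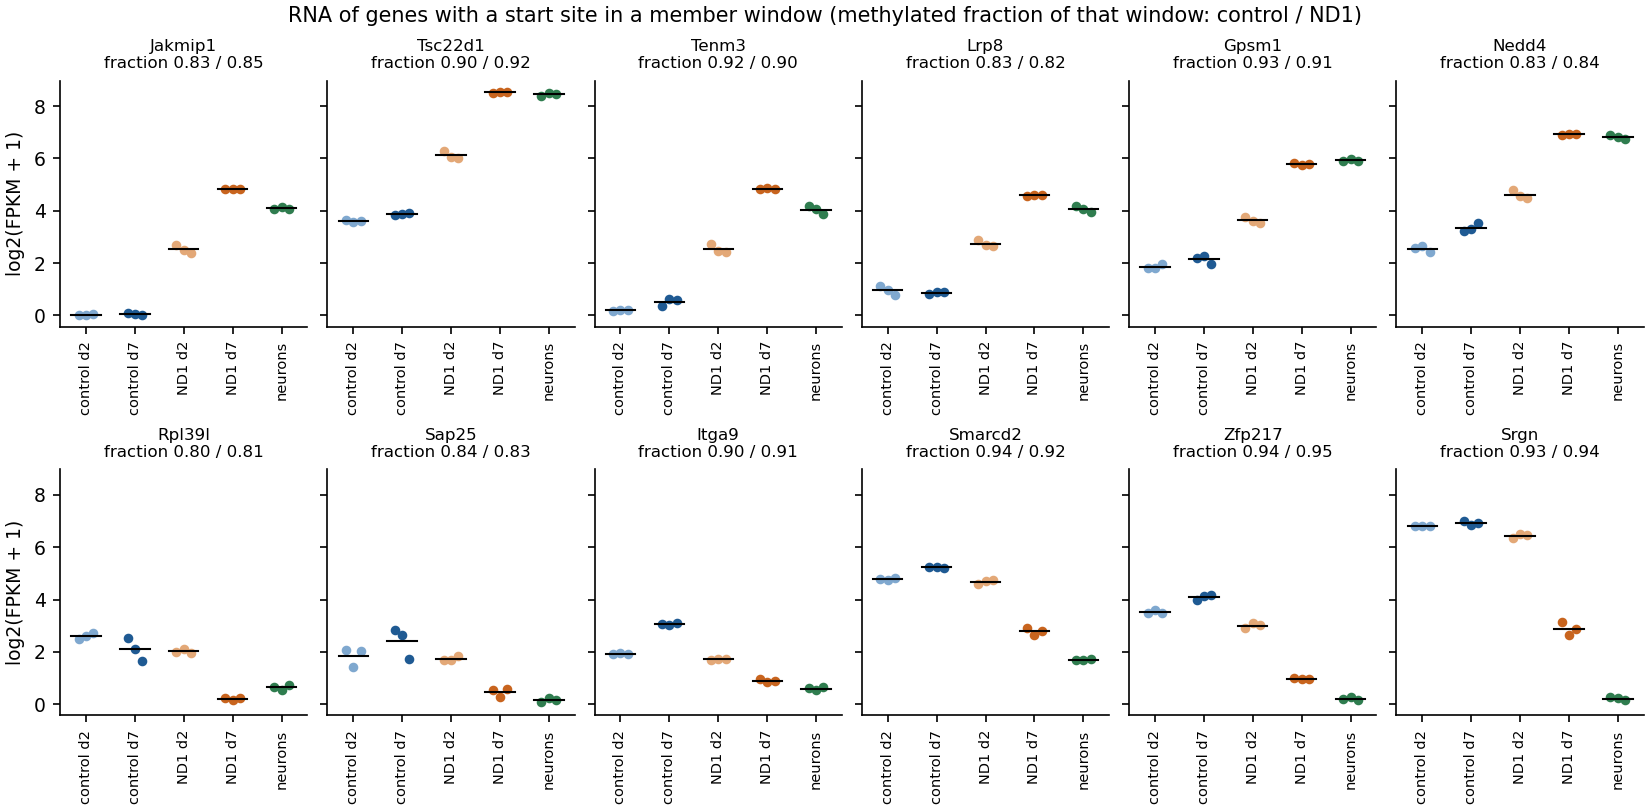
RNA as log2(FPKM + 1) (y axis) in each of 15 libraries by group (x axis; points are libraries, bars are means of 3) for the 6 largest called rises and 6 largest called falls at day 7 among genes with a start in a member. The methylated fraction of that start window in control and ND1 stands above each panel. Each gene's day 7 groups are apart, from 0.0336 to 27.4 FPKM on average in Jakmip1, while its 2 fractions differ by 0.0294 or less.

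The genes with the most RNA in control day 7 among those with a start in a member were Srgn, Arhgef2, Abr, Nt5dc2, Smarcd2, Fnbp1, Slc44a2 and Pik3r1, at means of 120, 60.4, 57.6, 46.6, 36.8, 36.3, 24.2 and 20.6 FPKM. All but Smarcd2 have at least 1 other listed start that is not in a member. Of them Arhgef2 fell from 57.3, 62.3 and 61.5 to 24.7, 23.6 and 23.5 FPKM in ND1 day 7 (log2 change -1.30, SE 0.0474, limma adjusted p = 2.40e-12), with its window at 0.804 and 0.785. Abr went from 57.6, 59.1 and 56.1 to 99.7, 98.1 and 97.8, a log2 change of 0.76 that was no call, with its window at 0.927 and 0.940. Nt5dc2 fell from 47.8, 44.9 and 47.0 to 16.4, 14.4 and 15.9 (log2 change -1.52, SE 0.0683, limma adjusted p = 2.68e-11), with its window at 0.817 and 0.849. Zdbf2, the imprinted gene of the class, had 0.0327, 0.0597 and 0.0219 in control day 7, 2.06, 2.31 and 2.14 in ND1 day 7 and 6.11, 4.86 and 4.33 in neurons (log2 change at day 7 1.61, SE 0.0777, limma adjusted p = 6.37e-11). Its member start is 1 of 2 listed, and that window went from 0.866 ± 0.102 to 0.842 ± 0.108 over 32 positions (chr1:63200000-63200999).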

How the data were processed

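CpG methylation and RNA were analysed from the tables deposited by the authors, for 2 bisulfite and 15 RNA libraries, and 10 chromatin immunoprecipitation samples were not analysed here. The bisulfite tables hold 1 deposited fraction of methylated calls for each CpG, made per the labels' protocols with a modification kit and post-bisulfite adaptor tagging and aligned to mm10 per the submitters' processing notes. The sources used here do not name the aligner or the caller. No read numbers come with the fractions, so the depth behind each is unknown and no interval for it is given. The control library lists 15343206 autosomal positions and the ND1 library 15770525, of which 14695943 are shared (95.8% and 93.2%), with means of 0.701 and 0.704. Positions are 1-based on the C of the CG: all 346709 shared positions inside the RefSeq promoter sequences lay there. A window covers 1000 bases from a multiple of 1000. Genes and starts came from RefSeq tables of GRCm38.p6, whose start table is incomplete and without chromosome 18 here.

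RNA values are gene-level FPKM computed by the authors with TopHat, Bowtie2, Cuffdiff and Cufflinks on mm10, per the submitters' processing notes, with no versions given. FPKM sums ran from 428966 to 739688 per library, read depth is not given, and an exact 0 can be a failed estimate. Genes with at least 1 FPKM in 3 libraries were fitted as log2(FPKM + 1) with limma 3.58.1 in R 4.3.3 over 5 groups of 3, with an intensity trend, 10 residual degrees of freedom, no replicate block and Benjamini-Hochberg adjustment over 13599 genes. Fold changes on this scale understate changes of weakly expressed genes. Both computations were tested on simulated data.

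The members and lists were chosen with earlier results of these data known. The text names the 10 largest falls, 5 largest rises, 5 members with most positions, 3 longest runs and 3 windows on each side of the border, and, among genes with a start in a member, the 8 with most RNA in control day 7 and the 6 largest called rises and 6 falls at day 7, plus list genes. Alternatives changed the window rule, and for RNA the pseudocount, filter, scaling, block, replicates and distance to a start.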

Additional observations from a re-analysis of the deposited data

Results flagged for a closer look

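For 15 of the named genes with a start in a member window the ND1 effect on RNA at day 7 differed from that at day 2 by the interaction term of the limma fit (adjusted p under 0.05 and a difference of at least 1 on the log2 scale). The difference, day 7 effect minus day 2 effect, was positive for Jakmip1 (2.28), Tsc22d1 (2.14), Tenm3 (1.98), Lrp8 (1.97), Gpsm1 (1.86), Nedd4 (1.52) and Zdbf2 (1.20). It was negative for Srgn (-3.65), Zfp217 (-2.61), Smarcd2 (-2.35), Itga9 (-1.95), Nt5dc2 (-1.91), Sap25 (-1.84), Rpl39l (-1.29) and Fnbp1 (-1.05). In the 6 named rises both effects were positive. Among those with a negative difference, Smarcd2 stood at 26.4, 25.6 and 27.2 FPKM in control day 2 and 22.9, 24.97 and 25.9 in ND1 day 2, and Nt5dc2 at 18.4, 17.6 and 18.1 and at 22.3, 24.2 and 25.2, so Nt5dc2 was higher in ND1 at day 2 and lower at day 7. Nt5dc2 at day 2 did not reach the size of a call (log2 change 0.38, limma adjusted p = 0.000227). Counts over such genes were no more frequent than in all genes tested (39.1% against 41.3%), and the methylation labels give no day to set beside either time.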

How the results depend on the processing

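Methylation levels rest on 1 library per group and an unknown depth, so differences near the SD of a window class cannot be read as change, and start sites are those of an incomplete table. The number of members followed the rule: 85232 with 15 or more positions, 2646 with 30 or more, 12796 at a control fraction of 0.90, 3157 in windows of 500 bases, 102996 in windows of 2 kb and 4757 without positions at exactly 0 or 1. The share lower in ND1 left the interval of the reported 48.9% at 48.1% (0.75 control fraction), 53.2% (0.90), 50.6% (500 bases), 47.8% (2 kb), 49.7% (window medians) and 45.1% (members chosen on ND1). It was above 50% at the 0.90 level and in windows of 500 bases, and below 50% with the rest. With medians of the window in place of means, 3 members were lower by 0.20 or more, and with every other alternative 0. The count past 0.10 in either direction, looked at after seeing the data, was 0 to 24 except for window medians, which gave 120. The median on positions that did not choose the window kept its sign when the sets were exchanged.

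RNA calls among genes with a start in a member were 34 at day 7, 11 at day 2, 39 in neurons and 25 for the interaction. With a start within 1 kb of a member the 264 genes gave 130, 29, 146 and 99, and with every listed start in a member, added after seeing the data, the 26 genes gave 12, 4, 15 and 9, since these alternatives change how many genes are counted. At day 2, a pseudocount of 0.1 gave 17 (26.6% against 18.6% of all genes) and quantile normalization 6 (9.38% against 7.18%). Leaving out a replicate gave 32 to 38, 10 to 12, 37 to 40 and 25 to 27. The replicate block gave 34, 11, 40 and 25, and the numbers do not pair the libraries, since 2 of 30 same-numbered pairs had a correlation of deviations over 0.1 (range -0.226 to 0.161). Each of the 12 largest changes at day 7 kept its direction and its call in every alternative fitted to it. The interaction was refitted after seeing the data.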
